A study of Selaginella kraussiana with 4 samples.

Results

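The shoot tip and the rhizophore tip are the growing apices of Selaginella kraussiana, a prostrate spikemoss, and their RNA was compared here locus by locus. A locus entered the comparison if it was at least 300 bp long after loci that overlapped by 1 bp or more in any of the 4 libraries had been merged, and if its FPKM (fragments scaled to 1 kilobase of transcript and 1000000 fragments of library) was at least 1 in one of the tips. This kept 22337 of 31210 merged loci. Left out were 5155 merged loci under 300 bp and 3718 longer ones under FPKM 1 in both tips. The plants were not treated, and no genotype other than the species is given in the labels. All were grown at the same temperature and day length, and the libraries differ in the tissue taken: microphyll (the small lycophyte leaf, labelled leaf), shoot tip (labelled seedling), rhizophore tip (labelled rhizophore) and stem. The labels do not use the words shoot tip. That the seedling library is the shoot tip was taken from the list of tissues in the study's methods, in which it is the only name left unmatched once leaf is read as microphyll.

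Shoots of Selaginella grow from a few stem cells at the apex, which forks repeatedly and forms microphylls at its flanks. The rhizophore is a leafless axis that arises from the angle meristem at a fork of the shoot, grows downward and forms roots at its end. Both organs therefore carry an active apex, but only the shoot tip carries young leaves. The question addressed is how far the transcripts of these apices are alike.

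How many plants went into a library is not given in the sources used here. Each tissue was represented by 1 library, so no difference between the tips has a replicate check, no p-value is given, and a difference between tissues cannot be told apart from one between the plants or preparations used. The error printed with an FPKM is its deposited interval, read as a 95% interval, which holds the error of 1 library only and no spread between plants. If it spans 2 Poisson standard deviations on either side, the intervals imply a total of fragments for each library. This total was 57.8 M (1 M is 1000000) for the shoot tip and 49.6 M for the rhizophore tip. For the other libraries it was 46.9 M to 53.3 M. These implied totals lie below the numbers of reads stated in the study's methods, and are not the sequencing depth. The same reading gives the number of fragments behind a locus, an understatement where reads were shared between transcripts. Over the loci listed in a tip the median implied number was 360 for the shoot and 315 for the rhizophore. The tables hold no gene names and no sequences. The loci are therefore given by contig of the authors' draft assembly and by position counted from 1, no gene function can be assigned to them, and the tissue labels were not checked against marker genes.

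Most loci had similar levels in both tips. In such tissue samples, fewer cells of a type and less RNA per cell cannot be told apart. The difference in log2(FPKM + 1), rhizophore tip minus shoot tip, had a median of 0.052, and its 25th and 75th percentiles were -0.53 and 0.57. For 15599 loci (69.8%) the tips lay within 1 of each other on this scale, and for 4415 (19.8%) they were from 1 to under 2 apart. The Spearman correlation of the tips was 0.82 across the 22337 loci, which are not independent replicates and were partly chosen by their level. Both tips reached FPKM 1 at 19117 loci, the shoot tip alone at 1569 and the rhizophore tip alone at 1651. Near the limit of FPKM 1, 229 loci had a higher value from 1 to under 1.1, and 260 loci left out had one from 0.9 to under 1. Near the limit of length, 284 loci were 300 to 309 bp long with a median FPKM of 11.6 in the higher tip, and 260 loci left out were 290 to 299 bp long with a median of 14.5.

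A locus was counted as different at 2 or more on the log2(FPKM + 1) scale, which is 4-fold where the levels are far above the pseudocount of 1. By this rule 1190 loci were higher in the rhizophore tip (5.33% of those compared) and 1133 were higher in the shoot tip (5.07%), together 10.4%. A similar number stood on each side, 51.2% of the differing loci in the rhizophore tip. With FPKM rescaled to TPM (each library brought to a sum of 1000000 over all its loci), the numbers were 363 and 563 and this share was 39.2%. That sum includes loci under 300 bp, and the pseudocount of 1 was kept, which weighs more under TPM. The share was 50.5% when scaled to the sum over merged loci of at least 300 bp. It was 48.9% when the libraries were scaled by the median ratio of their loci. TPM moved the median difference by more than 0.1, to -0.11. Set beside them, by the same rule, 13.1% of loci differed between the rhizophore tip and the stem and 11.9% between the shoot tip and the stem. These comparisons share libraries and were not tested against each other.

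**Figure D1:**
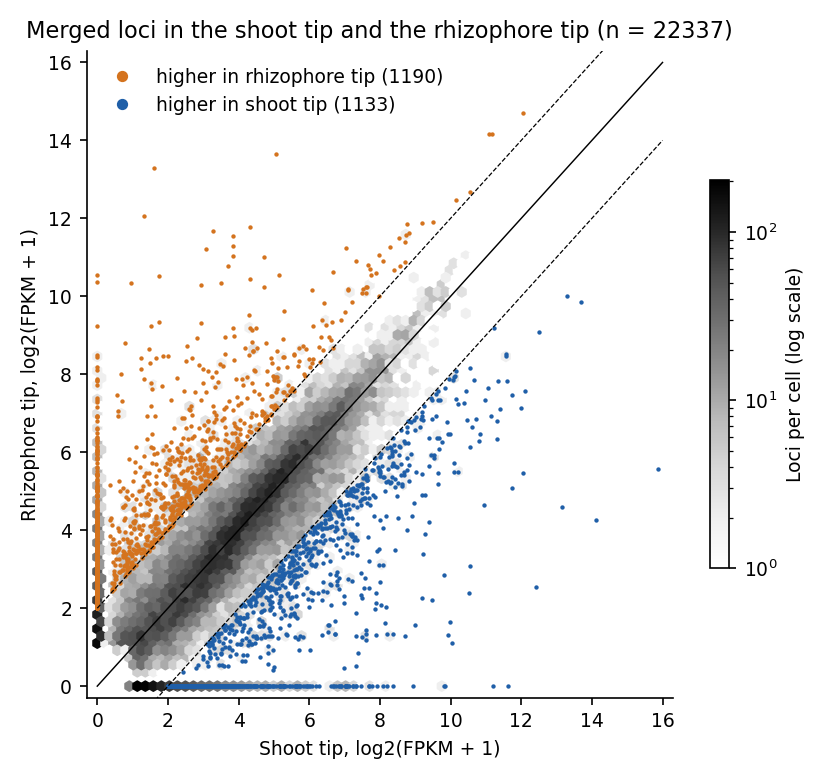
Level of each of the 22337 merged loci in the shoot tip (horizontal axis) and the rhizophore tip (vertical axis), both in log2(FPKM + 1), with grey cells shaded by the number of loci. The solid line marks equal levels and the dashed lines a difference of 2. The 1190 orange loci lie above the band and the 1133 blue loci below it, and the points on the axes are loci not listed in the other tip.

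Few of the differing loci listed in both tips had intervals that overlapped. These loci were chosen by the size of their difference, so this was largely set by the rule, and the intervals hold no spread between plants. Among the 20124 loci listed in both tips, the 95% intervals of the tips lay apart for 12310 (61.2%), but for 7953 of these the difference was under 1. Of the differing loci that were listed in both tips, the intervals lay apart for 710 of 722 toward the rhizophore tip and 667 of 681 toward the shoot tip. Another 468 loci were higher in the rhizophore tip and not listed in the shoot tip, and 452 the reverse, so that the size of these differences depends on the pseudocount. A locus that is not listed was entered at FPKM 0, which says that no transcript was assembled there and not that none was present.

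A larger share of the abundant loci differed. At an FPKM of 1000 or more in the higher tip, 104 of 188 loci differed (54 higher in the rhizophore tip, 50 in the shoot tip), or 55.3%, against 10.4% over all loci. The share was 19.4% from 100 to under 1000, 9.43% from 10 to under 100 and 8.08% from 1 to under 10, a class in which no difference of 2 is possible below FPKM 3. A locus enters a high class through the tip in which it is high, so these shares are a description. By length, the share was 14.2% at 300 to under 600 bp, 10.6% at 600 to under 1200 bp, 8.88% at 1200 to under 2400 bp and 7.30% at 2400 bp and over. Among loci of 2400 bp and over, 163 were higher in the rhizophore tip and 210 in the shoot tip, and at 300 to under 600 bp the numbers were 473 and 393.

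**Figure D2:**
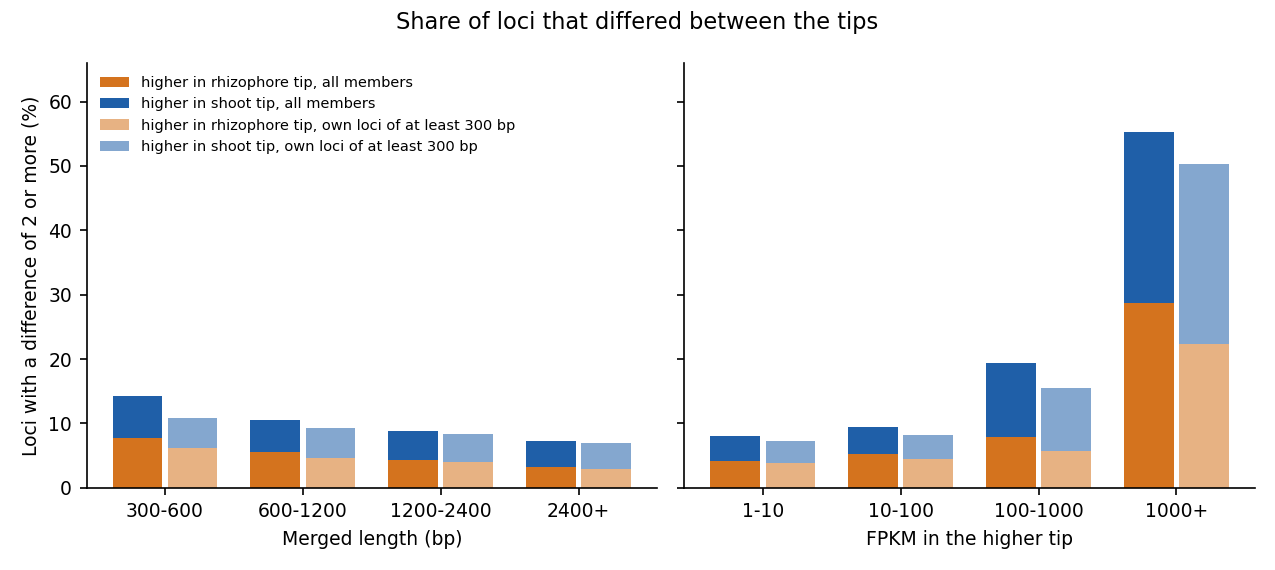
Share of loci (vertical axis, %) that differed by 2 or more in log2(FPKM + 1), by merged length (left) and by FPKM in the higher tip (right), with orange for higher in the rhizophore tip and blue for higher in the shoot tip, stacked. Full colours are all loci compared and pale colours those whose own loci in the tips are at least 300 bp long. The share is 55.3% at an FPKM of 1000 or more and under 20% in every other class drawn for all loci.

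The largest differences often rested on short assemblies. A merged locus can be over 300 bp long because another library extends it, while the tip's own locus is short, and FPKM divides by a small effective length there. Of the loci higher in the rhizophore tip, 246 (20.7%) held an own locus under 300 bp in that tip. The number was 212 (18.7%) for the shoot tip, against 4.28% and 4.00% of all loci listed in the rhizophore tip and the shoot tip. At a difference of 6 or more it was 39 of 72 loci toward the rhizophore tip and 25 of 67 toward the shoot tip. Restricted to loci whose own loci were all at least 300 bp long in both tips where listed, a choice made after the values were seen, 938 (4.49% of 20890) were higher in the rhizophore tip and 911 (4.36%) were higher in the shoot tip, together 8.85%.

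**Figure D3:**
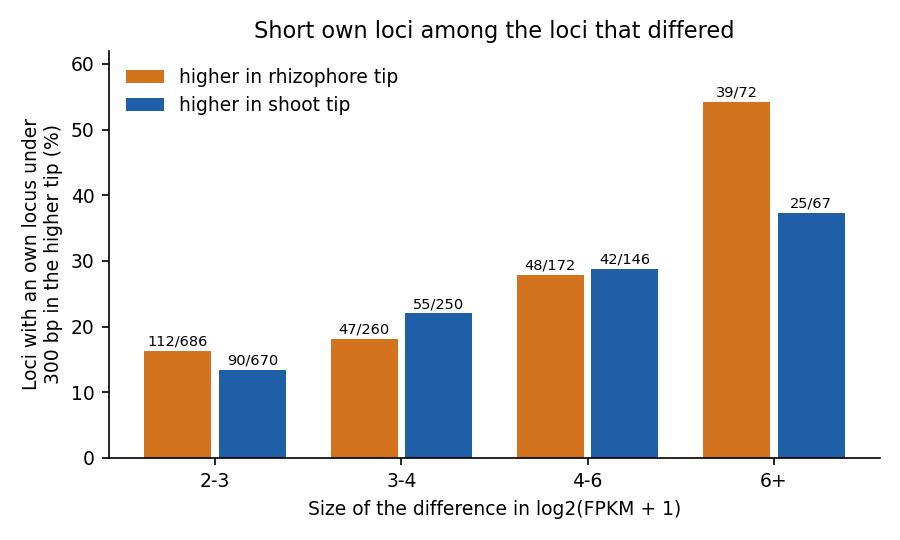
Share of differing loci whose own locus in the higher tip is under 300 bp (vertical axis, %), by size of the difference in log2(FPKM + 1) (horizontal axis), for loci higher in the rhizophore tip (orange) and in the shoot tip (blue). The numbers above the bars are such loci of all in the class, and rise from 112 of 686 to 39 of 72 in the rhizophore tip.

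The 6 largest differences toward the rhizophore tip were all of this kind, among loci listed in both tips with at most 1 locus per library, FPKM 10 or more in the higher tip and intervals apart. On contig 068411, from 148 to 576, the FPKM was 10086 in the rhizophore tip, 2.06 in the shoot tip, 4.65 in the microphyll and 805 in the stem, a difference of 11.68 between the tips. Its own locus in the rhizophore tip was 96 bp long with 23.7 implied fragments, so the FPKM and the number of fragments give unlike pictures of its level. The others, on contigs 065952, 087283, 087156, 081313 and 104433, had own loci of 97 to 141 bp in the rhizophore tip and differences from 8.40 to 10.74. Only the one on contig 081313 had more than 1000 implied fragments in the rhizophore tip (3263, FPKM 12755 against 32.5 in the shoot tip).

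Toward the shoot tip, the 6 largest differences under the same limits were of either kind. Loci with several pieces in a library were not ranked here, and some of these differed by more, such as that on contig 050869 (-10.31). That on contig 091873, from 1 to 586, stood at an FPKM of 17908 in the shoot tip, against 18.2 in the rhizophore tip, 85.2 in the microphyll and 30.7 in the stem. It was 108 bp long in the shoot tip and 583 bp in the rhizophore tip, with 534 and 342 fragments. The locus on contig 057373 likewise had 105 bp and 21.0 fragments in the shoot tip. The remaining 4, on contigs 060287, 044881, 068480 and 074566, were at least 302 bp long in the shoot tip with 1967 to 15518 implied fragments there.

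Rhizophore tip loci with long assemblies are shown next, the 8 largest differences among loci listed in both tips with own loci of at least 300 bp in each, at most 1 locus per library, FPKM 10 or more and intervals apart. They were chosen by this narrower rule after the values were seen. The third locus of contig 085601, from 6007 to 7431, reached an FPKM of 446 (426 to 466) in the rhizophore tip and 0.74 (0.43 to 1.05) in the shoot tip, and was not listed in the microphyll or the stem. It differed by 8.01 between the tips, with own loci of 1410 bp in the rhizophore tip and 894 bp in the shoot tip.

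On contig 083439, from 1473 to 1927, the FPKM was 1242 (1221 to 1263) in the rhizophore tip, 6.60 (4.94 to 8.25) in the shoot tip, 11.9 in the microphyll and 49.98 in the stem. The locus on contig 099775, from 5439 to 6293, stood at 2081 (2064 to 2099) in the rhizophore tip, 13.4 (11.6 to 15.2) in the shoot tip, 23.3 in the microphyll and 83.5 in the stem. Both had the same order of tissues, with the rhizophore tip first and the stem second, at differences of 7.35 and 7.18. On contig 103764, from 3317 to 4578, the FPKM was 354 in the rhizophore tip, 3.03 in the shoot tip, 2.15 in the microphyll and 8.53 in the stem. On contig 098910, from 458 to 2175, it was 195 in the rhizophore tip, 1.95 in the shoot tip, 1.22 in the microphyll and 7.26 in the stem. In these the stem was again second, and the shoot tip and the microphyll lowest. The loci on contigs 080135, 070507 and 075501 had differences of 6.61, 6.34 and 5.84 and were not listed in the microphyll, with 157, 121 and 323 FPKM in the rhizophore tip. Of the 8, none had an FPKM above 83.5 in a tissue other than the rhizophore tip.

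The 8 largest differences toward the shoot tip under the same narrower rule fell into 2 sorts by their level in the microphyll. High in the microphyll too was the locus on contig 060287, from 2 to 1478, with an FPKM of 1054 (1010 to 1099) in the shoot tip and 627 in the microphyll, against 6.31 in the stem and 1.14 (0.71 to 1.58) in the rhizophore tip. On contig 068480, from 1 to 385, the FPKM was 1470 (1446 to 1494) in the shoot tip and 868 in the microphyll, against 88.9 in the stem and 4.22 (2.78 to 5.67) in the rhizophore tip. On contig 024453, from 1 to 356, it was 4204 in the shoot tip and 1299 in the microphyll, against 55.9 in the stem and 43.5 in the rhizophore tip. In all 3 the shoot tip was highest, the microphyll second and the rhizophore tip lowest. Low in the microphyll was the locus on contig 044881, from 1310 to 2029, at 969 (926 to 1013) in the shoot tip, against 1.49 (0.95 to 2.04) in the rhizophore tip, 2.51 in the microphyll and 1.43 in the stem. The locus on contig 103619, from 1 to 979, stood at 509 (501 to 516) in the shoot tip, against 1.98 (1.45 to 2.51) in the rhizophore tip, 1.56 in the microphyll and 1.74 in the stem. It had 19124 implied fragments in the shoot tip against 55.4 in the rhizophore tip, and the shoot tip was the one tissue that stood apart. The loci on contigs 043643, 100383 and 099226, from 1379 to 2050 bp long in the shoot tip, had 159, 166 and 125 FPKM there, under 1 in the rhizophore tip and at most 11.6 in the microphyll and the stem.

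**Figure D4:**
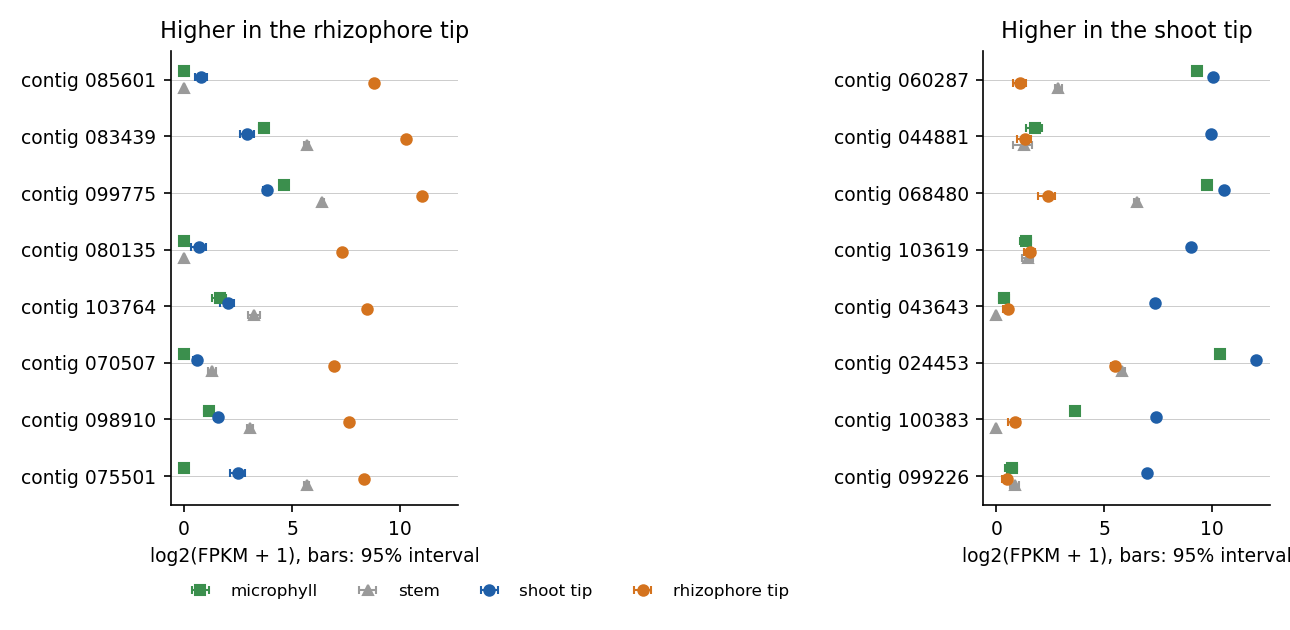
Levels in log2(FPKM + 1) (horizontal axis) of the 8 loci with the largest difference in each direction among those with own loci of at least 300 bp in both tips, in the shoot tip (blue), the rhizophore tip (orange), the microphyll (green squares) and the stem (grey triangles). Bars are the deposited 95% intervals within each library and are often narrower than the symbol. In the left panel the orange point is the highest of the 4 at every locus, and in the right panel the blue point is.

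Across all differing loci, those of the shoot tip were often high in the microphyll as well, and those of the rhizophore tip seldom were. A level was counted as near a tip if it lay within 1 on the log2(FPKM + 1) scale of it, or beyond it. Of the 1133 loci higher in the shoot tip, the microphyll was near the shoot tip or above at 648 (57.2%) and near the rhizophore tip or below at 324 (28.6%). In 419 (37.0%) it exceeded the shoot tip. Of the 1190 loci higher in the rhizophore tip, the microphyll was near the rhizophore tip or above at 245 (20.6%). It was near the shoot tip or below at 778 (65.4%). The microphyll was not listed, and so entered at FPKM 0, at 410 (34.5%) of the loci of the rhizophore tip. The same held at 152 (13.4%) of the loci of the shoot tip and 10.8% of all loci compared.

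The stem was less one-sided. It was not listed at 190 (16.8%) of the loci of the shoot tip and 356 (29.9%) of those of the rhizophore tip. It was near the higher tip or above at 468 (41.3%) of the loci of the shoot tip and 373 (31.3%) of those of the rhizophore tip, and near the lower tip or below at 442 (39.0%) and 652 (54.8%). Taken jointly, both the microphyll and the stem were near the lower tip or below at 517 (43.4%) of the rhizophore tip loci and 225 (19.9%) of the shoot tip loci. Conversely both were near the higher tip or above at 143 (12.0%) and 351 (31.0%), loci at which one tip was low and the other 3 tissues were not. Over all 22337 loci the median FPKM was 10.5 (microphyll), 12.4 (shoot tip), 12.9 (rhizophore tip) and 11.1 (stem). Over the rhizophore tip loci it was 2.40, 1.17, 23.3 and 4.73 in the same order, and over the shoot tip loci 17.3, 32.2, 1.78 and 9.87. The values of the tips in these groups were fixed by the choice of loci, those of the microphyll and the stem were not.

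**Figure D5:**
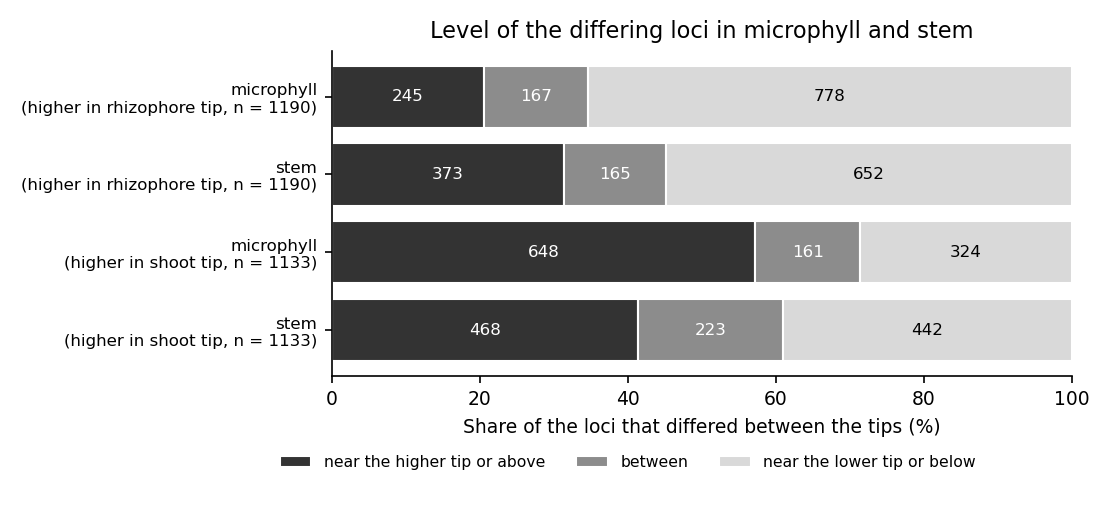
Share of the loci that differed between the tips (horizontal axis, %), by whether the microphyll or the stem lay near the higher tip or above it (dark), between the tips (mid grey) or near the lower tip or below it (light), with the number of loci in each part. The microphyll is near the higher tip at 648 of the 1133 shoot tip loci and at 245 of the 1190 rhizophore tip loci.

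Fewer of the differing loci were listed in every library. This follows in part from the rule, because a tip that is not listed was entered at FPKM 0. Of the loci listed in 1 tip, 41.6% differed, against 6.97% of those listed in both tips. Of all loci compared, 18394 (82.3%) were listed in all 4, 537 in the rhizophore tip alone and 277 in the shoot tip alone, so that loci of the rhizophore tip alone were the more numerous before any difference was asked for. Of the 1190 loci higher in the rhizophore tip, 219 (18.4%) were listed in no other library and 581 (48.8%) in all 4, against 74 (6.53%) and 638 (56.3%) of the 1133 higher in the shoot tip. Among differing loci with own loci of at least 300 bp the numbers in no other library were 214 of 938 and 71 of 911. The highest of those in the rhizophore tip was on contig 004580, from 1926 to 2658, at an FPKM of 1491 (1475 to 1507) over 35227 fragments, and was not listed in the shoot tip, the microphyll or the stem. Next came the loci on contigs 067271, 086529 and 075808, at 359, 235 and 232 FPKM in the rhizophore tip alone. In the shoot tip the highest was that on contig 097045, from 1 to 1201, at 269 (257 to 281) over 1894 fragments. The shoot tip loci with higher values that were not listed in the rhizophore tip were listed in another tissue. On contig 086870, from 1 to 418, the FPKM was 3156 (3123 to 3189) in the shoot tip, 166 in the microphyll and 435 in the stem, and on contig 064418, from 1 to 419, it was 922, 137 and 186, likewise. The loci on contigs 049935 (rhizophore tip, FPKM 1329) and 048034 (shoot tip, 2349) were also among the highest listed in 1 tip. Their own loci were 104 and 150 bp long there, with 18.0 and 20.0 implied fragments. Another was on contig 074783, at 604 (281 to 927) in the rhizophore tip, with an own locus of 979 bp. Its wide interval implies 14 fragments, too few for that FPKM at that length, so the number of fragments behind it is not known.

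The most abundant loci differed between the tips. Of the 100 loci with the highest FPKM in each tip, 33 were shared, and of the 1000 highest, 619. Of the summed FPKM of the loci compared, the 100 highest held 26.5% for the shoot tip and 24.7% for the rhizophore tip. Among loci with own loci of at least 300 bp the order was the other way, at 19.7% and 21.0%. The loci counted as higher in a tip held 27.7% of this sum for the shoot tip and 23.5% for the rhizophore tip. They held 1.81% and 2.35% in the tip where they were lower. A contrast of this kind is set by the rule that chose the loci. The highest values were again partly those of short loci. On contig 050869, from 9 to 1194, the FPKM was 59957 in the shoot tip, where 1 of its 2 loci was 100 bp long, and 46.2 in the rhizophore tip. On contig 056902, from 315 to 3424, it was 26776 (17178 to 36375) in the rhizophore tip, where 1 of 3 loci was 94 bp long, and 4258 in the shoot tip. On contig 054616, from 22 to 432, it was 13202 in the shoot tip, where the own locus was 122 bp long, and 925 in the rhizophore tip, where it was 411 bp long.

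Among loci with long assemblies, 4 of the 5 most abundant of the rhizophore tip had the same order of tissues. On contig 073645, from 1 to 384, the FPKM was 18458 (18368 to 18548) in the rhizophore tip, 2161 (2132 to 2190) in the shoot tip, 594 in the microphyll and 271 in the stem. On contig 070269, from 1 to 413, it was 18282 (18198 to 18365), 2328 (2301 to 2356), 595 and 311 in the same order. On contig 105729, from 1 to 629, it was 6572, 1509, 558 and 230. That on contig 073271, from 1 to 459, followed with 5648, 1142, 1068 and 183. All 4 had the rhizophore tip highest, the shoot tip second and the stem lowest, at differences between the tips of 3.09, 2.97, 2.12 and 2.31. That on contig 105729 was 1.86 under TPM. Each of these covers its contig from the first base, and whether they are copies that shared reads was not tested, since no sequence was used. The fifth, on contig 052917, from 1 to 430, stood at 3837 in the rhizophore tip and 3336 in the shoot tip, a difference of 0.20 that turned to -0.055 under TPM.

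In the shoot tip the most abundant loci of this kind included longer merged spans. The shoot tip's own loci within them were shorter, 1426 to 3040 bp on contig 103377 and 341 to 3057 bp on contig 099692. On contig 103377, from 15 to 9296, the summed FPKM of several loci was 10096 in the shoot tip, against 3072 in the stem and 1033 in the rhizophore tip, with none listed in the microphyll. On contig 099692, from 7 to 10941, it was 5789, 1358 and 539, likewise, with 358 in the microphyll. These are sums of 5 loci in the shoot tip and of 3 each in the stem and the rhizophore tip. In the microphyll there was 1 locus of 10934 bp. Values summed over unlike numbers of pieces are not strictly comparable. On contig 045971, from 269 to 1320, the summed FPKM was 4422 in the shoot tip and 4958 in the microphyll, against 1662 in the stem and 190 in the rhizophore tip. These were lower in the rhizophore tip than in each tissue in which they were listed, except that the microphyll lay below it on contig 099692. The remaining 2 were closer between the tips, at 7692 and 2002 on contig 063554, where the microphyll (25767) and the stem (22049) were above both, and at 4479 and 3198 on contig 084194. The difference on contig 063554 was -1.94, short of the threshold, but -2.19 under TPM, and it just passed the threshold as well when the libraries were scaled by the median ratio of their loci.

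Position on the contig was the other feature that the tables give. Of the loci compared, 17244 (77.2%) had no other on their contig. Where a locus higher in the rhizophore tip had neighbours, 46 of these 406 neighbours (11.3%) were also higher in the rhizophore tip, against 5.92% of the neighbours of any locus, and 19 (4.68%) were higher in the shoot tip. For the shoot tip the numbers were 24 of 364 (6.59%), against 5.31%, and 19 (5.22%). Pairs were counted from either side, neighbouring loci can be pieces of 1 gene, and the shares were not tested.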

How the data were processed

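The series holds 1 RNA library of each of 4 tissues. Reads, after removal of their first 10 bases by the authors, were mapped with TopHat 2.0 to the draft contigs, and Cufflinks 2.1 assembled loci per library. The authors deposited FPKM values with a lower and an upper bound, and no counts, gene names or strands. Short loci have a small effective length and thus inflated FPKM. Groups followed the tissue labels.

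Here, with Python 3.11.15 and pandas 2.3.3, overlapping loci of the 4 libraries were merged (also those of opposite strands, which the tables do not give), FPKM values and bounds were summed per library, and log2(FPKM + 1) was compared. Fragments were taken as the square of 2 FPKM over the distance from the FPKM to its upper bound, and totals from the largest ratios of fragments to FPKM by length. The rules were run on simulated fragments with Poisson error only. These were made from loci listed in both tips, with 1 locus per tip and own loci of at least 300 bp. Short own loci and loci listed in 1 tip were left out of the simulation. Members and rules were chosen with earlier results of these data known.

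Loci named were, in each direction, the 6 largest differences (listed in both tips, at most 1 locus per library, FPKM of at least 10, intervals apart), the 3 highest listed in 1 tip, the 4 highest per tip and the 3 largest differences in FPKM. Lists requiring own loci of at least 300 bp were added after the values were seen. Alternatives were the pseudocount, scaling, filters, threshold, intervals and unit.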

Additional observations from a re-analysis of the deposited data

How the results depend on the processing

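The numbers of loci higher in the rhizophore tip and in the shoot tip, 1190 and 1133, were 2035 and 1985 with a pseudocount of 0.1, 528 and 558 with one of 5, 363 and 563 under TPM, 1871 and 2018 with no minimum length, 717 and 740 from 600 bp, 3487 and 3251 at a difference of 1, 504 and 463 at a difference of 3, and 722 and 681 among loci listed in both tips. The pseudocount of 1 was kept with TPM, where it weighs more. With at most 1 locus in each library they were 824 and 719. By alternatives chosen after seeing the data they were 778 and 764 with at least 100 implied fragments in the higher tip. With own loci of at least 300 bp as well they were 709 and 711. The implied number is also low at long loci with wide intervals, such as that on contig 074783, so this is not a filter on depth alone. Under the remaining 8 of 19 alternatives both stayed within 1.5 times. Among these 8 was the removal of the filter on FPKM. It had to return the same numbers, because no difference of 2 is possible below FPKM 3. More loci were higher in the rhizophore tip under 13 of the 19, that removal included.

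The median difference, 0.052, was 0.036 with a pseudocount of 5, -0.11 under TPM, 0.039 when scaled to the sum over loci of at least 300 bp, -0.0027 under median-of-ratios factors and 0 with no filter on FPKM. The Spearman correlation, 0.82, was 0.86 with no filter, 0.66 from FPKM 10, 0.84 among loci listed in both tips, 0.73 with no minimum length, 0.83 from 600 bp and 0.84 with own loci of at least 300 bp, and the Pearson correlation was 0.79. With own loci of at least 300 bp, the microphyll was near the lower tip or below at 69.4% of the rhizophore tip loci, and 10.9% and 9.22% of loci differed at 300 to under 600 and 600 to under 1200 bp. Of 50 named loci under 5 scalings or pseudocounts, the sign changed once, to -0.055 on contig 052917 under TPM. A pseudocount cannot reverse a sign, and the largest shift by scaling was -0.26 (TPM). The signs of loci chosen for large differences were thus fixed in advance. No paired analysis was possible because there is 1 library per tissue, and no replicate could be left out.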

Other observations

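On 2 contigs, 3 loci each were higher in the rhizophore tip, and on none were 3 higher in the shoot tip. All 3 loci compared on contig 085601 were of this kind. From 4 to 2003 the FPKM was 46.1 in the rhizophore tip, 2.38 in the shoot tip and 1.30 for the stem, with none listed in the microphyll. From 2161 to 5426 it was 112 in the rhizophore tip, 10.7 in the shoot tip, 7.12 in the microphyll and 15.02 in the stem. The shoot tip value has a wide interval that implies 0.72 fragments, too few for that FPKM at a shortest own locus of 1279 bp. It is therefore uncertain. The third, from 6007 to 7431, is described above. On contig 102871 the 3 were from 526 to 1352, at 106 in the rhizophore tip and 16.9 in the shoot tip, from 1508 to 1807, at 6.08 in the rhizophore tip alone, and from 11888 to 12536, at 4.41 in the rhizophore tip alone. The other 2 loci of that contig were level between the tips, at 11.3 and 10.9 from 7371 to 7908, and at 58.0 and 57.1 from 9420 to 11709 in the rhizophore tip and the shoot tip. These contigs were chosen after their values were seen.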
